A study of Mus musculus with 6 samples.

Results

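The CD300 receptor family of mouse macrophages comprised 8 genes here, chosen by name from the 54232 rows of the deposited gene table: Cd300a, Cd300lf, Cd300c, Cd300c2, Cd300lb, Cd300ld, Cd300e and Cd300lg. Each name matched 1 row. RNA came from bone marrow derived macrophages of C57BL/6 mice aged 8 weeks, in 3 SIRPa KO libraries and 3 WT libraries. SIRPa is the inhibitory receptor through which myeloid cells read CD47. Marrow cells of both genotypes had been cultured for 7 days with 30% conditioned medium of L929 cells, a fibroblast line that supplies colony-stimulating factor 1, and neither group was treated. The labels do not say how the knockout was made, nor whether each library stands for a mouse of its own. The p-values therefore rest on the scatter of these libraries, and that scatter may be technical.

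CD300 receptors are single-pass membrane proteins with an immunoglobulin domain that mostly binds lipids, among them the phosphatidylserine and phosphatidylethanolamine exposed by dying cells. Inhibitory members carry a long cytoplasmic tail with immunoreceptor tyrosine-based inhibitory motifs (ITIMs), which recruit phosphatases once phosphorylated, as the tail of SIRPa does. Activating members have short tails and signal through adaptors with activating motifs, chiefly DAP12 (the Tyrobp product) and the common Fc receptor gamma chain (Fcer1g). In macrophages the family is known for setting the threshold of activation and for the uptake of apoptotic cells.

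The split into inhibitory and activating members could be read from the coding sequences of the GENCODE M21 transcripts. The script placed the membrane segment at the most hydrophobic stretch of 19 codons and searched the codons after it for the ITIM pattern. Cd300a had 114 codons after that segment and 2 ITIM-like sites, and Cd300lf had 127 codons and 2 sites. Cd300lf also had 1 site of the kind bound by the p85 subunit of PI3 kinase, which Cd300a lacked. The 5 activating members had tails of 4 to 33 codons and 0 ITIM-like sites. Cd300lg had a tail of 107 codons and 0 such sites. The sites are shown because they set the inhibitory pair apart. They are coding-strand bases on GRCm38, with the tyrosine codon in capitals, and they lie at chr11:114899846-114899863 and chr11:114901147-114901164 (plus strand, Cd300a) and at chr11:115117648-115117665 and chr11:115117112-115117129 (minus strand, Cd300lf).
Cd300a, first site: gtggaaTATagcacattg
Cd300a, second site: cttcacTATtcatccgtg
Cd300lf, first site: ctctgtTATgcagacctg
Cd300lf, second site: gtttcaTATgccgctctg

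Of the 8 members, 7 lie in 1 cluster on chromosome 11 of GRCm38, from 114890041 to 115133992, a stretch of 244.0 kb. The cluster holds 11 CD300 genes, 10 of them on the minus strand, with Cd300a alone on the plus strand. The remaining 4 genes are Cd300ld2, Cd300ld3, Cd300ld4 and Cd300ld5, which were not members. Cd300lg lies 12.8 Mb away on the same chromosome, from 102041509 to 102055620. Cd300lf (115116214 to 115133992, minus strand) sits inside the span of Rab37, a gene of the opposite strand, with 0 exon bases in common.

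Total depth ran from 28653015 to 31401080 assigned reads in KO libraries and from 34102444 to 67446846 in WT libraries, WT replicate 3 being the deepest. Values below are normalized counts, that is, reads per gene divided by the authors' size factor for the library. Sirpa, the targeted gene, stood at 2075 ± 56.0 in KO and 106443 ± 10296 in WT (SD, n = 3 each), so the libraries matched their labels. All 8 macrophage markers were tested and high, with Csf1r between 88025 and 114303 in KO and between 85160 and 112206 in WT. Summed markers of B cells reached at most 5.73 in KO and 4.35 in WT, and those of T and NK cells 4.58 in KO and 0 in WT. Summed neutrophil and precursor markers ranged from 439 to 613 in KO and from 377 to 758 in WT, with Ly6g at 0 in all 6 libraries. In bulk RNA, fewer cells of a type and less RNA per cell cannot be told apart.

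No CD300 member was called higher or lower in KO macrophages. All 8 passed the filter of at least 10 normalized counts in at least 3 libraries, and 0 had an adjusted p under 0.05 by limma (adjusted p = 0.9998 for each), against 0.00739% of all 13527 genes tested, which is Sirpa alone. The unadjusted p was above 0.05 for all 8, where 1.52% of all genes were below it. On the reads recovered from the normalized counts, edgeR's quasi-likelihood test and DESeq2 also called 0 members and 0.00739% of all genes each. Summed over the 8 members, the normalized count reached 21861, 23644 and 21571 in KO, against 23502, 25346 and 25900 in WT. KO replicate 2 lay above WT replicate 1, so the groups overlapped.

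The KO mean was below the WT mean for all 8 members, against 51.8% of all genes tested. This count fell to 5 of 8 without KO replicate 1 and to 5 of 8 without WT replicate 3, so 1 library of either group moved it by more than 1.5 times. The median log2 fold change (KO over WT, on log2 of the normalized count plus 1) was -0.10 over the 2 inhibitory members and -0.15 over the 5 activating members, beside -0.01 over all genes. Leaving out KO replicate 1 gave an inhibitory median of -0.003, and leaving out WT replicate 3 one of -0.02. The activating median was -0.24 without WT replicate 1 and -0.09 without WT replicate 2.

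**Figure D1:**
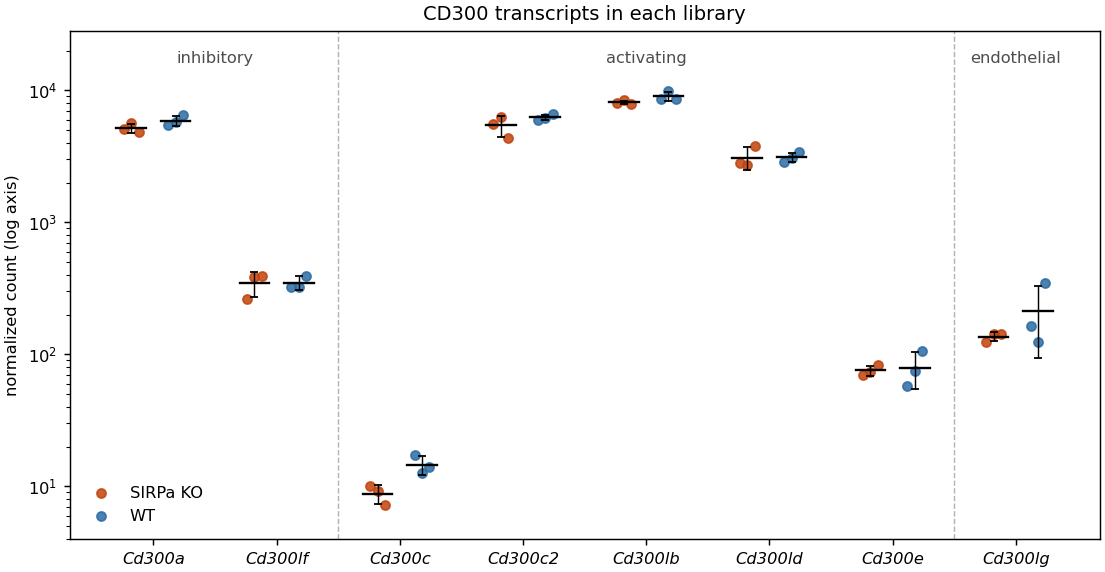
Normalized count (log axis) of each CD300 member in the 3 SIRPa KO libraries (left of each pair) and the 3 WT libraries (right), with points for libraries, horizontal lines for group means and bars for SD. Cd300lb, Cd300c2, Cd300a and Cd300ld lay well above the other members in both groups, Cd300c was the lowest, and the highest Cd300lg value, 347, was WT replicate 3.

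Among the inhibitory members, Cd300a, a receptor for phosphatidylserine and phosphatidylethanolamine, was abundant and slightly lower in KO within the spread. It had 5066, 5642 and 4834 normalized counts in KO, against 5471, 5717 and 6496 in WT. KO replicate 2 lay above WT replicate 1 and the groups overlapped. Its log2 fold change was -0.19 (SE 0.11, 95% interval -0.43 to 0.06), and it was -0.11 without WT replicate 3.

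Cd300lf, which in mice binds ceramide and serves as the entry receptor of murine norovirus, had 263, 383 and 392 normalized counts in KO, against 323, 322 and 395 in WT. KO replicate 1 was the lowest of the 6, while the other KO libraries lay close to WT replicate 3. The means were 346 ± 72.0 in KO and 347 ± 42.1 in WT (SD, n = 3 each), with a log2 fold change of -0.02 (95% interval -0.42 to 0.38). Its sign changed with single libraries: leaving out KO replicate 1 gave 0.16, and leaving out WT replicate 3 gave 0.08. As log2 deviations from the mean over the 6 libraries, Cd300lf stood at -0.38, 0.16 and 0.19 in KO, against -0.09, -0.09 and 0.21 in WT. The median deviation of 12 interferon-stimulated genes was -0.82, 0.02 and -0.02 in KO, against 0.01, 0.22 and 0.55 in WT. Both were lowest in KO replicate 1 and highest in WT replicate 3. Their signs were opposite in KO replicate 3, WT replicate 1 and WT replicate 2. The part of the interferon state in the Cd300lf values was not tested.

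Activating members spanned the range from the most to the least abundant of the family. Cd300lb couples to DAP12, binds phosphatidylserine and promotes uptake of apoptotic cells. It had the highest count, 7984, 8382 and 7928 in KO, against 8626, 9818 and 8593 in WT. Every KO library lay below every WT library. The means were 8098 ± 247 in KO and 9012 ± 698 in WT (SD, n = 3 each). The log2 fold change was -0.15 (SE 0.10, 95% interval -0.38 to 0.07), and it was -0.09 without WT replicate 2. limma did not call it.

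Cd300c2, also called MAIR-II, pairs with DAP12 in macrophages. Its normalized count was 5555, 6312 and 4388 in KO, against 5992, 6186 and 6561 in WT. KO replicate 3 was the lowest and KO replicate 2 exceeded 2 of the WT libraries. The log2 fold change was -0.22 (SE 0.13, 95% interval -0.52 to 0.08), and it was -0.08 without KO replicate 3 and -0.34 without KO replicate 2. Tyrobp, its adaptor, had 23490, 27367 and 17298 normalized counts in KO, against 24784, 23952 and 30189 in WT. Its order in the KO libraries was that of Cd300c2, but Cd300a, Cd300lb, Fcer1g and Hcst had this order too. The other members did not. In WT the orders differed, with Cd300c2 lowest in replicate 1 and Tyrobp lowest in replicate 2.

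Cd300ld, which associates with the Fc receptor gamma chain, had nearly equal means in both groups. It had 2790, 2701 and 3794 normalized counts in KO, against 2852, 3090 and 3388 in WT. KO replicate 3 was the highest of all 6 and KO replicate 2 the lowest. The log2 fold change was -0.02 (95% interval -0.33 to 0.29), and it turned positive without KO replicate 1 (0.05), KO replicate 2 (0.07) or WT replicate 3 (0.04).

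Cd300e, whose human counterpart is an activating receptor of monocytes, was low: 70.1, 73.3 and 83.2 normalized counts in KO, against 57.6, 74.8 and 106.0 in WT. The KO values fell within the WT range. Its log2 fold change was -0.03 (95% interval -0.58 to 0.51), 0.20 without WT replicate 3 and 0.02 without KO replicate 1.

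Cd300c, an activating receptor in humans, was the scarcest member. It had 10.01, 9.16 and 7.23 normalized counts in KO, against 17.4, 12.6 and 13.9 in WT, from 8, 8 and 6 reads in KO and 16, 13 and 26 reads in WT. Every KO library was below every WT library. The log2 fold change was -0.67 (SE 0.36, 95% interval -1.46 to 0.12; limma unadjusted p = 0.0875). All 3 WT libraries were above the filter of 10 and only KO replicate 1 among the KO libraries, so the gene entered the test through its higher group.

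KO and WT thus did not overlap, with KO lower, for Cd300lb and Cd300c, where 2.71% of all genes tested had KO below WT without overlap. Cd300c was favoured by the filter, as described above, which leaves Cd300lb as the member whose groups separated without that help. Neither passed the test. Summed over 6 genes, monocyte markers, chiefly the chemokine receptor gene Ccr2, also lay lower in every KO library, at 7949 to 10189 in KO, against 10860 to 12398 in WT. Of these genes 5 were tested, 4 had a KO mean below WT and 0 passed, and their part in the values of Cd300lb and Cd300c was not tested.

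Cd300lg is known as an adhesion receptor of endothelium and stands apart from the myeloid members. It had 124, 142 and 143 normalized counts in KO, against 164, 124 and 347 in WT. WT replicate 3 stood far above the other 5 libraries, which lay between 124 and 164. The means were 136 ± 10.9 in KO and 212 ± 119 in WT (SD, n = 3 each), with a log2 fold change of -0.49 (SE 0.31, 95% interval -1.19 to 0.20). Without WT replicate 3 the log2 fold change was -0.07, and without WT replicate 2 it was -0.80. In the authors' deposited table the unadjusted p of Cd300lg was 0.0349 and its adjusted p 0.9999, and DESeq2 refitted to the recovered reads gave an unadjusted p of 0.0390.

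Endothelial markers were mixed beside Cd300lg. Summed over 7 genes they ranged from 607 to 758 normalized counts in KO and from 540 to 724 in WT, and WT replicate 3 was the lowest of the 6. Most of that sum was Kdr, between 513 and 679 in KO and between 466 and 647 in WT. Tek, Emcn and Plvap had at most 3.44 in KO and 2.17 in WT, and Cldn5 was at 0 in all libraries. Egfl7 had 52.5, 36.7 and 39.8 in KO, against 53.2, 47.6 and 54.6 in WT. It was also highest in WT replicate 3, but only by a small margin. Cdh5 had 41.3, 37.8 and 32.5 in KO, against 28.2, 29.1 and 20.3 in WT, and was lowest there. The part of endothelial cells in the Cd300lg values was not tested.

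**Figure D2:**
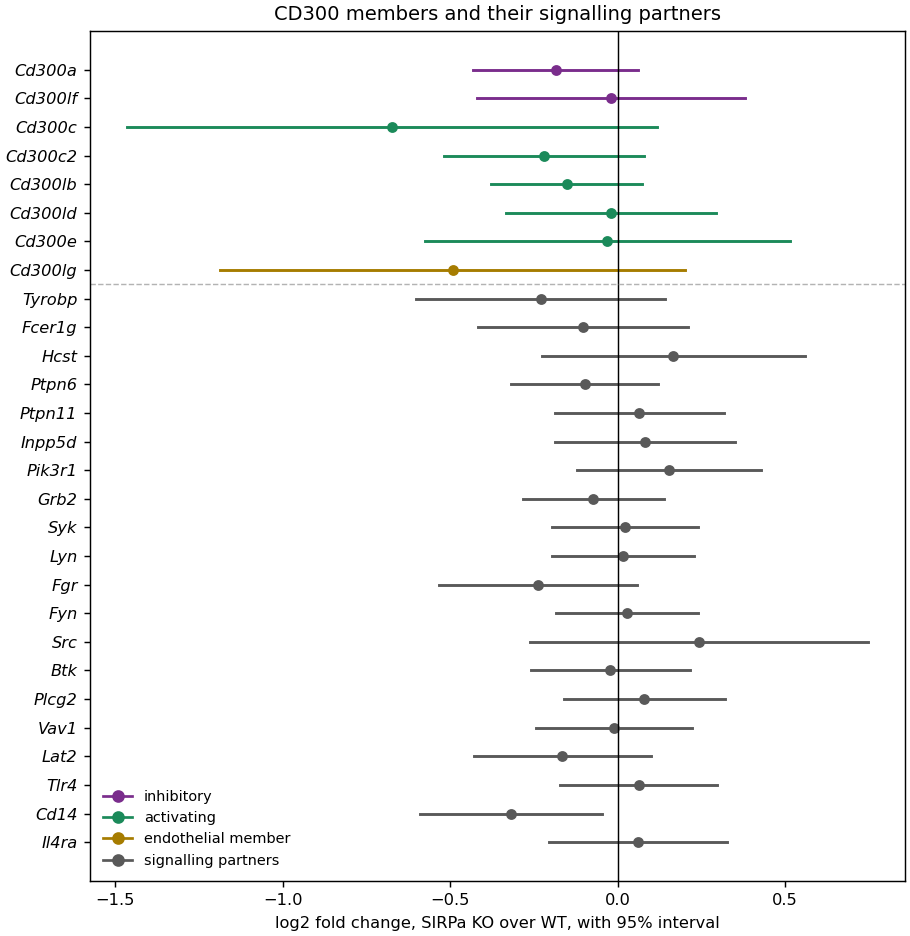
Log2 fold change of SIRPa KO over WT (points) with its 95% interval (lines) from limma for the 8 CD300 members and the tested signalling partners, coloured by role. The intervals of all 8 members include 0, and Cd14 has the only interval that does not.

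Levels were compared between members after division by the length of the merged exons in GENCODE M21, as normalized counts per kb. Cd300c2 ranked first with 4250 ± 760 in KO and 4899 ± 227 in WT per kb (SD, n = 3 each). Cd300lb followed with 2776 ± 84.8 in KO and 3090 ± 239 in WT per kb. The ranges of Cd300c2 and Cd300lb over the 6 libraries did not overlap, and the ratio of their means was 1.56. Cd300ld had 1170 ± 230 in KO and 1176 ± 102 in WT per kb. Cd300a had 1093 ± 87.8 in KO and 1244 ± 113 in WT per kb, and the ranges of both genes overlapped. Within libraries, Cd300ld lay above Cd300a in 1 of 6, namely KO replicate 3 (1434 against 1020 per kb).

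The other 4 members were far lower per kb. Cd300lf averaged 67.1 ± 14.0 in KO and 67.4 ± 8.18 in WT, Cd300lg 49.8 ± 3.99 in KO and 77.3 ± 43.3 in WT, and Cd300e 36.2 ± 3.27 in KO and 38.0 ± 11.7 in WT. Neighbours in this order overlapped. Cd300c was last, with 8.26 ± 1.34 in KO and 13.7 ± 2.31 in WT per kb. The annotated exons of Cd300lf merge to 5149 bases because of non-coding transcripts, whereas its longest coding transcript has 1885. Over the longest coding transcript its mean over the 6 libraries was 184 per kb, and its range then lay above that of Cd300lg. On that scale Cd300a stood just above Cd300ld, again with overlapping ranges.

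Of the per-kb level summed over the 8 members, the inhibitory pair made up 12.3% ± 0.270 in KO and 12.4% ± 0.704 in WT (SD, n = 3 each). The activating members made up 87.2% ± 0.318 in KO and 86.9% ± 1.08 in WT. The balance between both classes was thus close in KO and WT, and it ran from 6.97 to 7.31 activating over inhibitory in KO and from 6.52 to 7.43 in WT. Nearly all of the inhibitory share was Cd300a, at 11.6% ± 0.126 in KO and 11.7% ± 0.647 in WT.

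**Figure D3:**
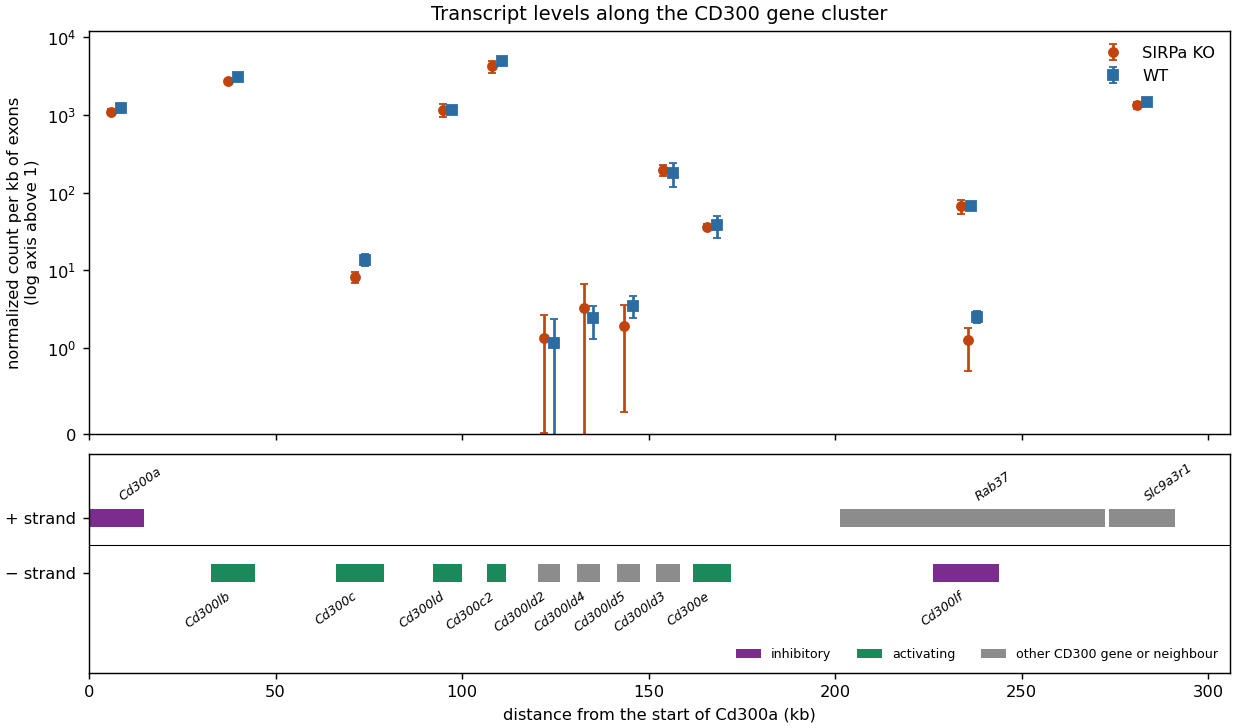
Upper panel: mean normalized count per kb of exons ± SD (n = 3 each; log axis above 1, linear from 0 to 1) in SIRPa KO (circles) and WT (squares) for the 11 genes of the cluster with Rab37 and Slc9a3r1, at each gene's position. Lower panel: gene spans by strand and distance from the start of Cd300a in kb, coloured by role. The group means ran from 1.14 per kb (Cd300ld2 in WT) to 4899 per kb (Cd300c2 in WT). KO and WT means lay close together for Cd300ld (1170 in KO, 1176 in WT). The means were further apart for Cd300c (8.26 in KO, 13.7 in WT) and Rab37 (1.27 in KO, 2.52 in WT).

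Close relatives of Cd300ld in the cluster had lower counts, but they share much of their sequence. Cd300ld3, a gene next to Cd300e and no member, had 180, 186 and 134 normalized counts in KO, against 137, 213 and 110 in WT. Cd300ld2, Cd300ld4 and Cd300ld5 had 0 to 5.73 in KO and 0 to 3.75 in WT, and they failed the filter. The coding sequences of Cd300ld4 and Cd300ld5 were 99.9% identical. Of the 50-base stretches of each gene, 82.1% were shared with another CD300 gene for Cd300ld3, 93.8% for Cd300ld4, 100% for Cd300ld5 and 31.0% for Cd300ld2. Reads of Cd300ld3, Cd300ld4 and Cd300ld5 may thus be split or lost, depending on how the authors counted reads that match several genes, and the low counts do not show that these genes are silent. Members were more distinct: Cd300c2 shared 7.16% of its stretches with another CD300 gene, Cd300lf 5.22%, Cd300ld 3.89% and Cd300a 1.96%, and the other 4 members shared 0%.

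Promoter windows were compared within this group. In the RefSeq windows on GRCm38.p6, which run from 250 bases before to 50 bases after the start site, Cd300ld matched Cd300ld3 at 87.1% and Cd300ld4 at 88.3% of aligned bases, and Cd300ld4 matched Cd300ld5 at every base. The counted levels over the 6 libraries averaged 1173 per kb for Cd300ld, 188 for Cd300ld3, 2.81 for Cd300ld4 and 2.71 for Cd300ld5, with the limit of shared sequence on the last 3. All 4 windows held GAGGAAGT, a core sequence bound by the myeloid factor PU.1, which was searched on both strands and found in 3.11% of 32544 distinct windows. Of the 7 members with a window, Cd300ld and Cd300lf held it. The motif began at position -143 from the start site in Cd300ld and at position 0 in Cd300lf. The stretch of 70 bases around it is shown for Cd300ld, Cd300ld3 and Cd300ld4 because the letters around the motif are largely shared, with GAGGAAGT in capitals, on the minus strand at chr11:114989970-114990039 (Cd300ld), chr11:115048458-115048527 (Cd300ld3) and chr11:115027061-115027130 (Cd300ld4).
Cd300ld: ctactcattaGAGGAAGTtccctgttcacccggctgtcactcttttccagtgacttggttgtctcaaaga
Cd300ld3: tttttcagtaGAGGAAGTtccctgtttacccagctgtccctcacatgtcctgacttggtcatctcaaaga
Cd300ld4: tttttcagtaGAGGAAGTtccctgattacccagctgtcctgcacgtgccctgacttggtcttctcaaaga
The motif is a match of letters, and whether the factor binds there was not measured.

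Signalling partners of the receptors were transcribed in both groups and 0 of them passed. Of 3 adaptors, 0 rose and 0 fell. Tyrobp had a log2 fold change of -0.23 (SE 0.17), Fcer1g of -0.10 (SE 0.14) and Hcst, which encodes DAP10, of 0.17 (SE 0.18). Hcst had 149, 187 and 134 normalized counts in KO, against 139, 138 and 137 in WT, far below the 31489 to 41826 in KO and 33649 to 42193 in WT of Fcer1g, counts that are not per length. Of 5 phosphatases and tail binders 0 rose and 0 fell, with a median log2 fold change of 0.06, which was -0.02 without WT replicate 3 and 0.16 without WT replicate 2. Ptpn6, the phosphatase recruited by ITIMs, had 18428 ± 543 in KO and 19734 ± 681 in WT (SD, n = 3 each). Pik3r1, the p85 subunit of PI3 kinase, had 5779 ± 724 in KO and 5187 ± 514 in WT, and Grb2, an adaptor, had 10942 ± 241 in KO and 11510 ± 209 in WT. The libraries of Ptpn6 and Grb2 did not overlap between groups, with KO lower, as for 2.71% of all genes tested. Neither was called.

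Of 9 kinases and proximal signal proteins, 0 rose and 0 fell, 5 lay above and 4 below WT, and the median log2 fold change was 0.02. Fgr, a Src family kinase of myeloid cells, had 315, 305 and 357 normalized counts in KO, against 375, 374 and 401 in WT. All KO values were below all WT values, as for 2.71% of all genes tested. limma did not call Fgr (log2 fold change -0.24, 95% interval -0.53 to 0.06). Lat2, an adaptor phosphorylated downstream of Syk, had a log2 fold change of -0.17, and the kinase gene Src one of 0.24 (95% interval -0.26 to 0.75).

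Partner receptors were represented by Tlr4 and Cd14, with which CD300b forms a complex on lipopolysaccharide, and by Il4ra, which CD300f joins. Of 5 genes on this list 3 were tested and 0 passed. Cd14 had 11583, 14395 and 10799 normalized counts in KO, against 14862, 15142 and 15520 in WT. The groups did not overlap, with KO lower, as for 2.71% of all genes tested. The log2 fold change of Cd14 was -0.32 (SE 0.12, limma unadjusted p = 0.0254, adjusted p = 0.9998). Tlr4 and Il4ra stood at 0.06 each. Havcr1 and Timd4, phosphatidylserine receptors of the TIM family, did not reach the filter, with at most 2.41 in KO and 7.77 in WT. Related genes with a like immunoglobulin domain had few reads or none. Pigr and Fcamr had 0 reads in every library, which still allows an expected count of up to 3 reads per library. Fcmr had at most 3.62 in KO and 1.94 in WT.

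Genes around the cluster gave a local comparison. Within 500 kb on either side, 22 of 44 other genes were tested and 0 passed. Their median log2 fold change was -0.12, beside -0.01 over all genes tested. The KO mean was below the WT mean for 17 of 22, against 51.8% of all genes tested. Rab37, which spans Cd300lf, had 7.51, 9.16 and 3.62 normalized counts in KO, against 10.9, 15.5 and 13.9 in WT (limma unadjusted p = 0.0482, adjusted p = 0.9998), from 3 to 8 reads in KO and 10 to 26 in WT. All KO values of Rab37 were below the filter of 10 and all WT values above it, so its entry into the test already required a difference and its p supports nothing. Slc9a3r1, a scaffold protein gene, had 2563 ± 244 in KO and 2845 ± 61.9 in WT (SD, n = 3 each).

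The libraries varied within groups. WT replicate 3 was above the mean of the 6 libraries for all 8 members, by 0.01 (Cd300lb) to 1.096 (Cd300lg) on the log2 scale, and it was also high for interferon-stimulated (0.55) and cell cycle genes (0.45) and low for immediate early genes (-0.55). KO replicate 1 was below the mean for all 8 members, from -0.38 to -0.06. The share of all genes tested that deviated the same way in these libraries was not counted. Neither count therefore marks a trait of the family. KO replicate 3 had the lowest value of Cd300c2 (-0.40) and of immediate early genes (-0.85), and the highest of Cd300ld (0.30). The part of these library states in the CD300 values was not tested.

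**Figure D4:**
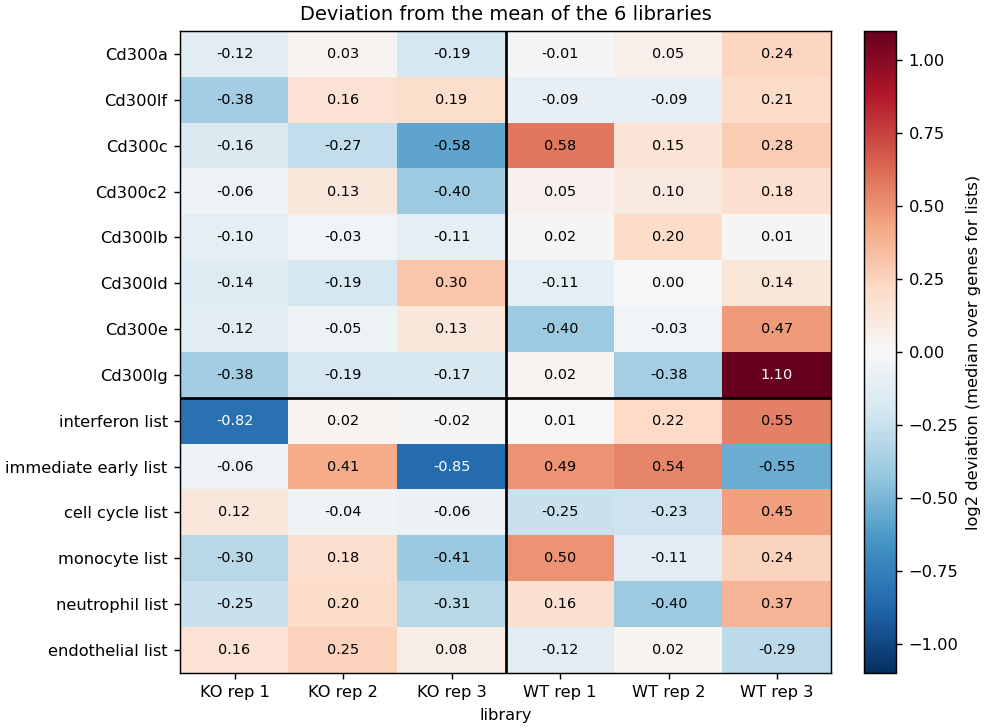
Log2 deviation of each CD300 member from its mean over the 6 libraries, and the median deviation of 6 marker or state lists, by library (SIRPa KO left, WT right). Cd300lg in WT replicate 3 is the highest value, at 1.096, and the immediate early list in KO replicate 3 the lowest, at -0.85.

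Genes whose pattern over the 6 libraries was most like a member's were found by the root mean square difference of log2 deviations among 9873 named genes with a mean of at least 100. For Cd300a these were Kank3 (0.024), Snx21 (0.026) and Myd88 (0.028), beside a median of 0.187 over all candidates. For Cd300lf they were Gpx3 (0.072), Zfp959 (0.080) and Bora (0.087), beside a median of 0.256. For Cd300lb, the activating member with the highest mean count, they were Kif3c (0.028), Fbxo28 (0.029) and Plekho2 (0.031), beside a median of 0.173. These genes were picked as the closest of 9873 over only 6 libraries, so they lie below the median by selection. Shared control of these genes was not tested.

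Weighting libraries by their estimated quality changed the calls. With limma's array weights Cd300lg (log2 fold change -0.41, adjusted p = 0.0352) and Cd300c (-0.73, adjusted p = 0.0182) were called lower, 2 of 8 members, where 13.4% of all genes were called lower. Those weights were 6.61 for KO replicate 1 and 7.10 for WT replicate 1, but 0.258 to 0.543 for the other KO and WT libraries, so that this fit leaned on 1 library per group. The estimation of the weights also stopped before it converged.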

How the data were processed

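Stranded mRNA libraries of SIRPa KO and WT macrophages (3 each, grouped and numbered by sample title) were analysed from 1 deposited table. The submitters' processing notes list STAR 2.5.1b, featureCounts 1.6.0, DESeq2 1.22.2 and CASAVA 1.4, with the build GRCm38, whereas the design text in the labels names TopHat 2.0.10. No source used here gives the annotation release, the strand setting of the counting or its handling of multi-mapping reads. In the deposited library columns the unit is a signal, namely reads per gene after division by a size factor of the library, and the deposited mean column is a signal of the same kind. All positive values (100%) were whole multiples of a step within 0.001 reads, so whole reads were recovered. The deposited columns of the comparison are, per the file headers, a log2 fold change, a Wald statistic (a score without a fixed range) and p-values.

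The main test was limma 3.58.1 (R 4.3.3) with an intensity trend on log2(value + 1), a scale that shrinks changes of low genes. It ran on 13527 genes with at least 10 in at least 3 libraries, two-sided, with Benjamini-Hochberg adjustment and a threshold of 0.05. Alternatives included edgeR 4.0.16 and DESeq2 1.42.0 on the recovered reads. With edgeR on those reads 1 gene was called. Members, lists and named genes were chosen with earlier results of these data known. All 8 members were named, and on each partner list the 3 tested genes of smallest p. From a partner list, 1 gene is not reported here. Coordinates and lengths came from GENCODE M21 on GRCm38 (54079 table IDs found) and promoters from RefSeq. The scripts were tested on simulated counts. Replicates differed beyond counting error (lowest chi-square over degrees of freedom 12.3). Depth limits the precision of Cd300c most, and less so that of Cd300e and Cd300lg. Cd300lg had 99 to 648 reads per library. Its SE was 0.31 with all libraries and 0.20 without WT replicate 3, the deepest library.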

Additional observations from a re-analysis of the deposited data

How the results depend on the processing

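Over 17 alternatives (pseudocount, filter, scaling, trend, array weights, replicate block, edgeR, DESeq2 and leaving out each library) 0 members were called in 16. The exception was array weights, with 2 members, 1685 genes higher and 1813 lower in KO, against 0 higher and 1 lower otherwise. Leaving out each library gave 0 genes higher, 1 lower and 0 members called each time, and 5 to 8 members below WT (8 with all libraries; this count was added after seeing the data). The smallest adjusted p of any member outside array weights was 0.857.

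Small differences turned sign. Leaving out each library gave -0.12 to 0.16 for Cd300lf, -0.18 to 0.07 (0.069) for Cd300ld and -0.24 to 0.20 for Cd300e, on the log2 scale. Cd300lf and Cd300ld were positive also without WT replicate 3 (0.077 and 0.043), as Cd300ld and Cd300e were without KO replicate 1 (0.045 and 0.020). Cd300lf was 0.0089 with quantile normalization, and Cd300e was 0.23 with array weights. With a minimum of 50, Cd300c was not tested. The cause was not tested. The replicate block gave 0 genes higher and 1 lower (327 genes at an unadjusted p under 0.05, against 205). Same-numbered libraries deviated with correlations of 0.01, 0.31 and 0.13, not every one over 0.1. Unlike-numbered libraries ran from -0.26 to 0.15, the highest being WT replicate 1 with KO replicate 3. The median deviation of immediate early genes was -0.06, 0.41 and -0.85 in KO, against 0.49, 0.54 and -0.55 in WT. It was highest in replicate 2 and lowest in replicate 3 of both groups. Whether the numbers mark pairs is thus not settled. The main fit did not use them as pairs, and the replicate block called 0 members.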
